A study of Mus musculus with 14 samples.

Results

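In organoids of the mouse small intestine that had received RANKL, the 2000 strongest H3K27ac regions were described, out of 55050 regions of 2000 bp in the authors' count table (3.63%). They were chosen by level: reads per region were scaled to reads per 1000000 of the library's reads in regions (CPM) in each of the 3 RANKL libraries, averaged, and ranked. The levels therefore describe the choice and are not tested, and the control libraries of the series are not used. Every region has the same width, so levels were not divided by length. No input was subtracted, and weak regions differed in level between chromosomes (below), so levels on different chromosomes are not strictly comparable.

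The organoids came from 1 line, derived from a female mouse with 1 Lgr5GFPDTR allele (Lgr5GFPDTR/+), which places a green fluorescent protein and diphtheria toxin receptor fusion at the stem cell gene Lgr5. Treated organoids were kept for 3 days in ENR medium with 3 µM CHIR99021 and 1.5 mM valproic acid, had 1 day in ENR, and then received 100 ng/mL RANKL for 6 days. Valproic acid inhibits histone deacetylases and was given to all 3 cultures before RANKL. The cultures were 3 independent differentiation experiments, so the SDs below are between experiments on 1 mouse's line and not between mice. Chromatin was profiled by ChIPmentation, in which Tn5 transposase adds adapters to antibody-bound chromatin.

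Acetylation of lysine 27 on histone H3 is deposited by the acetyltransferases p300 and CBP and is found at active promoters and enhancers. RANKL, a cytokine of the tumour necrosis factor family, binds the receptor RANK on intestinal epithelial cells, signals through NF-kB, and drives the differentiation of microfold (M) cells, which carry particles and microbes from the lumen to lymphoid tissue. NF-kB dimers of Rela, Relb, Rel, Nfkb1 and Nfkb2 are held in the cytoplasm by inhibitors such as Nfkbia, and Nfkbia is itself a target gene of NF-kB.

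The strongest regions that covered a gene start included those of Rela, Nfkbia and Nfkb2, at ranks 6, 7 and 8. Their promoter windows are printed to show what sequence lay under these regions. The windows run from 250 bases before to 50 after the start, 5′ to 3′ on the gene's strand (RefSeq, GRCm38.p6). Capitals mark matches on either strand to GGGNNTTTC, a short form of the NF-kB site. Other forms of the site were not searched for, so strings such as gggaattccc in the Nfkb2 window are not marked or counted.
Nfkbia: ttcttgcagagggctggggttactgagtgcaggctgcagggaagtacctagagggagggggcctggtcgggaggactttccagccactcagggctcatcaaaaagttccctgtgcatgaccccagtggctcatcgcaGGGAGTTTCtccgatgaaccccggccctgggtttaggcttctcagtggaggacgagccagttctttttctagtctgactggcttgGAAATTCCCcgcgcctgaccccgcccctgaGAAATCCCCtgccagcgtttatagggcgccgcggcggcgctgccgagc
Rela: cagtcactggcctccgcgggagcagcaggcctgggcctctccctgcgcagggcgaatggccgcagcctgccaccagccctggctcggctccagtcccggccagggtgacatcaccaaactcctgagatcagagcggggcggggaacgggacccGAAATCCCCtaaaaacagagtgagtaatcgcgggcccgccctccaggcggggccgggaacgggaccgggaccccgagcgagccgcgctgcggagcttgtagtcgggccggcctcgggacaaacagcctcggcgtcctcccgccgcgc
Nfkb2: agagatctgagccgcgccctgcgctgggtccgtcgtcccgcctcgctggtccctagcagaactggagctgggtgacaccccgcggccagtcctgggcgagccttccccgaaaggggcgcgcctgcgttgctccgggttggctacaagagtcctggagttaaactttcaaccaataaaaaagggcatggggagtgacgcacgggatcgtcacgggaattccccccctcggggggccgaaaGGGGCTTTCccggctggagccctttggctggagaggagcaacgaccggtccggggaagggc
The Nfkbia window (chr12:55492598-55492897, minus strand) held 3 matches, which began 113 and 28 bases before the start and 2 bases after it. The Rela window (chr19:5637291-5637590, plus strand) and the Nfkb2 window (chr19:46304487-46304786, plus strand) held 1 match each, 97 and 11 bases before the start. A match to this motif was found in 5.02% of the 1414 promoter windows that lay inside members, in 4.08% of the 9140 windows inside other regions, and in 4.26% of all 21263 windows. A match is a string of letters and was not tested as a binding site.

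Mature microRNAs whose hairpins lay inside members are printed for the 6 best known of them, with the seed (bases 2 to 8) in capitals, from the RefSeq table of the same build.
mmu-miR-192-5p: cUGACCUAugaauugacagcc
mmu-miR-194-5p: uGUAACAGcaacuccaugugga
mmu-miR-200c-3p: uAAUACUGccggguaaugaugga
mmu-miR-141-3p: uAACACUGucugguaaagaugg
mmu-let-7i-5p: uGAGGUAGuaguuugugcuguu
mmu-miR-203-3p: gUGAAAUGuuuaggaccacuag
The miR-192 and miR-194 hairpins lay together in the region at rank 10, and those of miR-200c and miR-141 together in the region at rank 370. The 6 seeds all differ from each other.

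Below the first region, the level fell smoothly with rank, and no step separated members from the rest. The highest member had 417.1 CPM, the second 216.4 and the last 67.97. The median was 83.9 CPM over the members (interquartile range 74.3 to 99.1) and 9.71 CPM over all regions. In all, 481 members were above 100 CPM and 50 above 150 CPM. Levels are averages over all cells of a culture, so a strong mark in few cells and a weak one in many cannot be told apart. On the inner side of the limit, the region at rank 2000, inside Map3k14, which encodes the kinase NIK of the non-canonical NF-kB pathway, had 67.97 ± 6.32 CPM (SD, n = 3). On the outer side, the next region, inside Ttc6, had 67.97 ± 9.01 CPM. These values are closer to each other than the spread between experiments, so single regions near the limit are not set apart from the members.

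The RANKL libraries held 2745451, 3252533 and 3902301 reads in regions (replicates 1 to 3). The median member had 235, 276 and 317 reads in them, and the lowest count of any member was 154, 188 and 215. Members held 18.5, 18.3 and 17.5% of the reads. When the 2000 regions were chosen on the other 2 libraries and read in the third, they held 18.4, 18.2 and 17.4%, and their median was 85.6, 84.9 and 81.2 CPM, above the 59.0, 58.4 and 57.1 CPM of the next 2000 regions. Of the members, 1606 were in the top 2000 of all 3 libraries taken singly, 329 in that of 2 and 65 in that of 1. The median coefficient of variation was 6.47% for members and 18.2% for all regions. Across members, pairs of libraries had Spearman correlations of 0.824 to 0.844, which describe regions of the same chromatin and are given with no test. Counts of members differed between libraries by more than reads alone give (chi-square divided by its degrees of freedom 1.48 to 1.89), and none repeats another.

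**Figure D1:**
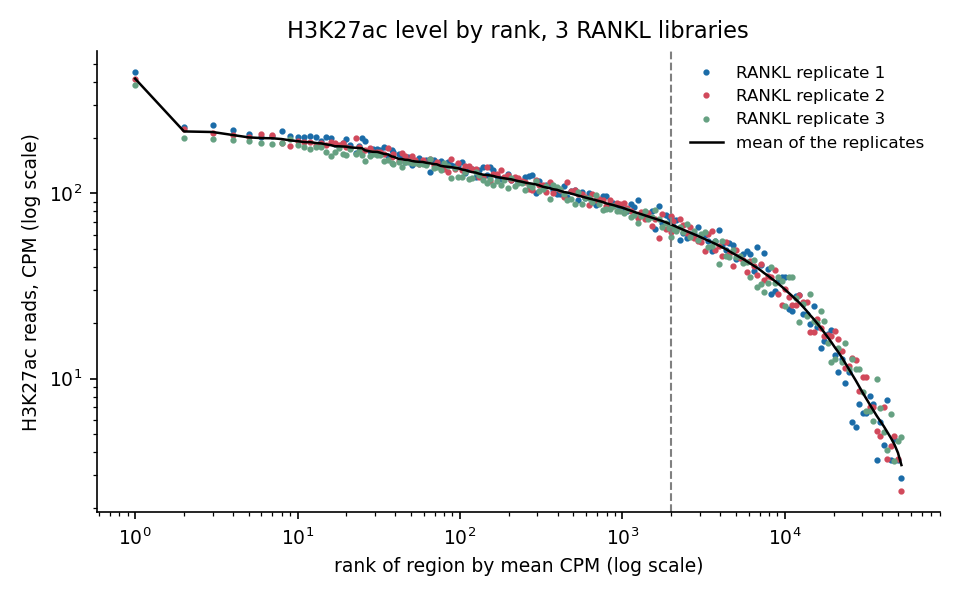
H3K27ac reads (CPM, log scale) against the rank of the region (log scale) for about evenly spaced ranks, with a point for each RANKL library and a line for their mean; regions with no read are not drawn. The dashed line marks rank 2000, where the level was 67.97 CPM and the curve had no step.

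The strongest region of all lay on an unplaced scaffold, JH584304, for which no gene positions were used here. It had 454.6, 412.9 and 383.9 CPM in replicates 1 to 3. Of the 53 regions on unplaced scaffolds 8 were members, and of the 13 on this one 6 were, against 3.63% of all regions. Input libraries were not analysed here, so how far the level on this scaffold reflects acetylation was not tested. Of the 20 strongest regions, 10 were at a gene start, 4 inside a gene, 2 between genes within 20 kb of a gene start, 3 between genes and farther from any start, and 1 without annotation. The region at rank 2 lay inside Sufu, an inhibitor of Hedgehog signalling (chr19:46483604-46485604), with 227.3, 221.7 and 200.1 CPM. The region at rank 3 was 0.304 kb from Neat1, the long non-coding RNA that builds paraspeckles, and 3.19 kb from the coding gene Frmd8, with 233.8, 213.1 and 197.6 CPM. Rank 4 lay inside Polr3gl, a subunit of RNA polymerase III, at 206.8 ± 12.9 CPM. Rank 5 was intergenic, 64.2 kb from Ppara, a nuclear receptor of fatty acid metabolism, at 201.0 ± 9.24 CPM. All of these were well above the last member in every library.

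The start of Rela, the activating subunit of canonical NF-kB, had 201.4, 208.8 and 187.3 CPM in replicates 1 to 3 (mean 199.2). The start of Nfkbia had 204.7, 207.2 and 184.3 CPM (mean 198.7). The start of Nfkb2, whose product p100 is processed to p52 in the non-canonical pathway that RANK engages, had 217.5, 186.6 and 186.3 CPM (mean 196.8). The 3 means differ by less than the SD of any of them, so their order is not resolved. Among the remaining strongest regions was that 4.70 kb from Klf9 (193.6 ± 12.1 CPM), which overlapped the non-coding gene 2410080I02Rik. Others were at the Mir194-2 and Mir192 hairpins (191.8 ± 8.93), at the shared start of Lpxn and Zfp91 (189.6 ± 11.7) and at that of Ppp1r10 and Mrps18b (189.3 ± 14.998). Below them were the start of Kmt2e (186.4 CPM), the inside of the chromatin remodeller gene Chd2 (184.2) and of Stn1 (182.6), a site 2.29 kb outside Vmp1 (180.0), and the starts of the myosin light chain gene Myl12b (179.9), the clock repressor Nr1d1 (179.5) and Lsr, a tricellular junction gene that shares its region with Fam187b (179.0).

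Chromosome 19 gave more members than its share. Of its 1944 regions, 172 were members (8.85%), against 2.15 to 6.44% (median 3.20%) on the 18 other autosomes and 0.811% on X. It held 9 of the 20 and 20 of the 100 strongest regions, among them Rela, Nfkb2, Sufu and Klf9. Weak regions were higher there too: the 10th percentile over its regions was 1.51 times the median of the other autosomes (1.67, 1.64 and 1.60 times in replicates 1 to 3), and regions between genes and over 20 kb from a start were 1.35 times as high at the median. On X the 10th percentile was 0.800 times that of the other autosomes. Chromosome 11 had the next largest share of members, 6.44%, with a 10th percentile 1.11 times the median of the autosomes. When each level was divided by its chromosome's 10th percentile relative to that median, a scale chosen after the data were seen, chromosome 19 had 58 members and none of the 20 strongest regions. Rela then stood at rank 91 and Nfkb2 at 99, while Nfkbia on chromosome 12 stood at rank 2. The part of chromosome number in these ranks was not tested, and the input libraries were not analysed here.

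**Figure D2:**
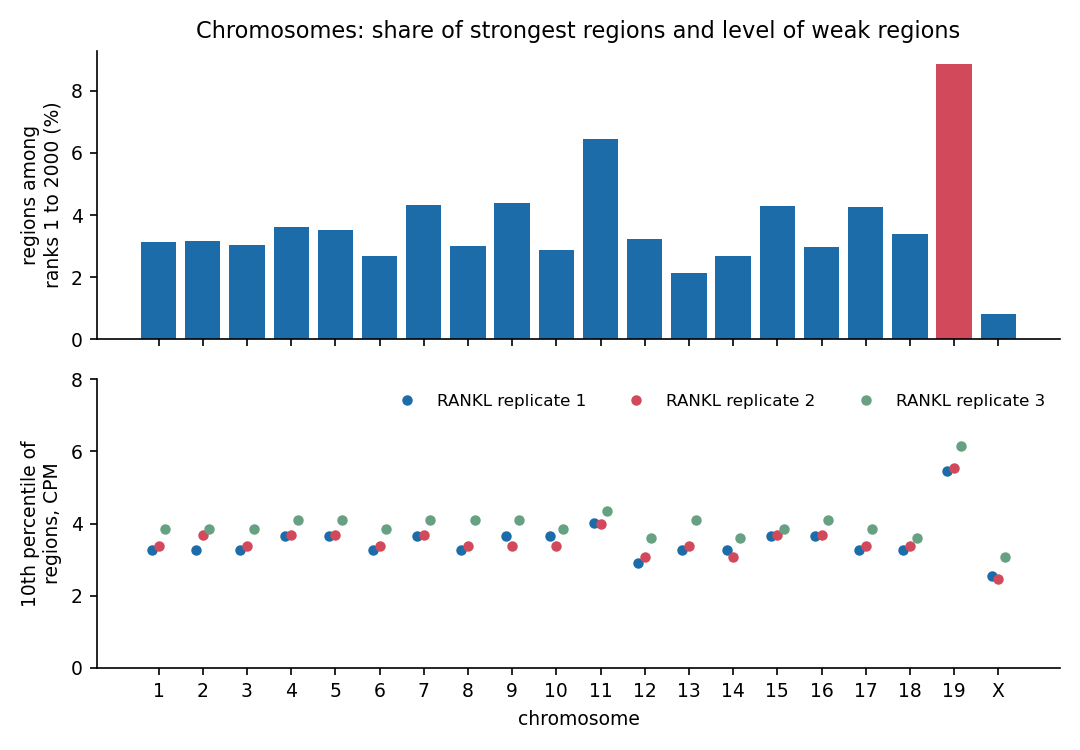
Upper panel, share of each chromosome's regions (%) that were among ranks 1 to 2000; lower panel, the 10th percentile of its regions in CPM, with a point per RANKL library. Chromosome 19 (red bar) stood at 8.85% and had the highest 10th percentile in each library, and X had the lowest.

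Most members covered or adjoined a gene start. A coding gene start lay within 2 kb of 1365 members (68.2%) and of 23.2% of all regions. For 1130 of these the strand is known from the promoter table; for the other 235 either end of the gene was accepted. The share was 71.4, 67.8, 65.0 and 68.8% in successive classes of 500 members, and 65.1% in the next 2000 regions, 52.8% from there to rank 10000, 31.7% to rank 20000 and 10.7% below. So the members differed little among themselves or from the next 2000 regions in this respect, and the fall came at lower levels. The starts of 2 or more coding genes lay at 271 members. A further 291 members (14.6%) were inside a gene away from its start, 147 (7.35%) between genes within 20 kb of a start, and 189 (9.45%) between genes and over 20 kb from any start, a class that held 30.8% of all regions. Gene spans were overlapped by 81.6% of members and 56.4% of all regions. Of the 635 members away from a coding start, 139 were within 2 kb of an end of a non-coding gene.

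**Figure D3:**
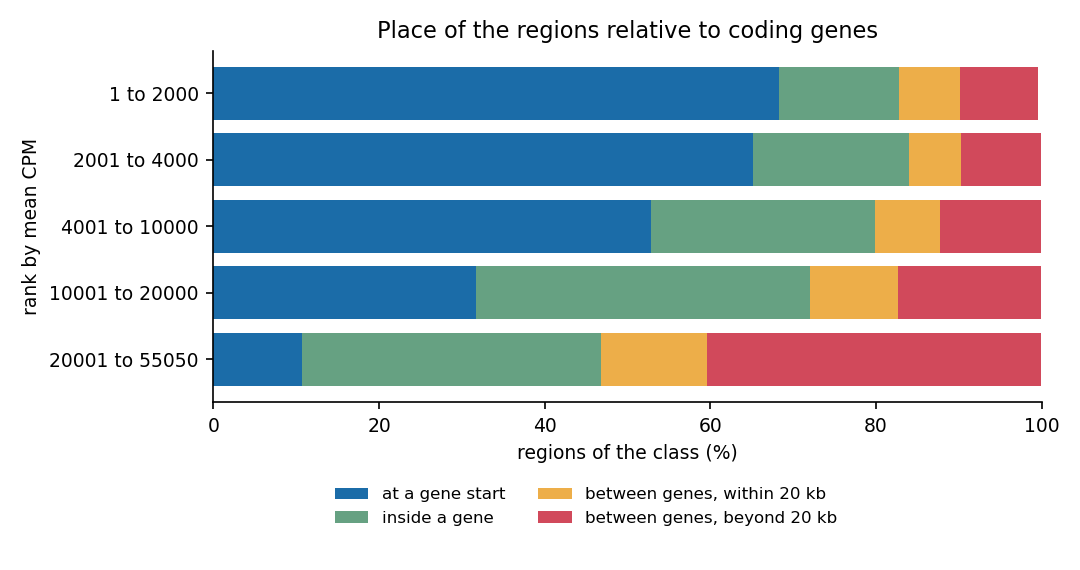
Share of regions (%) in 4 places relative to coding genes, for rank classes from strongest (top) to weakest; the remainder up to 100% lies on scaffolds without annotation. The share at a gene start was 68.2% in ranks 1 to 2000 and 10.7% below rank 20000.

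The choice set the same lower limit on level in every place, so the following medians only describe the members. The median was 84.3 CPM at gene starts, 82.5 inside genes, 85.3 between genes within 20 kb of a start and 81.6 over 20 kb from one. In all, 321 members were over 20 kb from a start, 142 over 50 kb and 61 over 100 kb, and 29 were over 100 kb from any coding gene. Distal members lay beside genes of several kinds. One inside Gata4, which encodes a transcription factor of the proximal small intestine, had 149.3, 151.3 and 146.1 CPM, 25.3 kb from a start. One 18.7 kb outside Onecut1, a relative of Onecut2, had 147.9, 152.5 and 142.5 CPM, while the region at the start of Onecut1 had 4.54 CPM. One 44.3 kb from Ezr, which links actin to the membrane of microvilli, had 158.4, 157.4 and 137.4 CPM, with 87.5 CPM at the gene's own start. This distal region also covered a start or end of the non-coding gene Gm2885. Others among the 15 strongest lay inside Stn1, Babam2 (175.9 CPM), Tacc2 (153.9), Frmd4b (149.3) and Epc1 (139.8), near Vmp1, Mex3c (177.5) and Frmd8, at the non-coding gene Malat1 (164.0 CPM), and 30.1 kb from Arhgap5 (152.1) and 45.6 kb from Stt3b (149.8). Those at Tacc2 and Arhgap5 also covered a start or end of the non-coding genes Gm39098 and Gm35239, and that near Stt3b overlapped the non-coding gene Gm30762. Which gene any of these distal members acts on was not tested.

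The promoter windows inside members were rich in G and C. Their median GC content was 63.7%, against 61.3% inside other regions and 56.3% over all windows. At least 15 CG dinucleotides stood in 84.9% of them, against 72.7% and 46.8%. The GC box GGGCGG, a form of the Sp1 site, was found in 69.5% of windows in members, 66.8% in other regions and 46.2% of all. The ETS core CCGGAA was found in 33.8, 29.5 and 18.7%. The TATA box TATAAA was found in 6.29, 6.71 and 12.6%. The AP-1 motif TGANTCA was found in 5.59, 4.56 and 6.99%, the CDX motif TTTATG in 4.95, 5.77 and 9.71%, and the CRE TGACGTCA in 4.53, 3.26 and 2.23%. Each motif was read on both strands and no overlap between motifs was removed. The GC box and the ETS core were commoner than in all windows and the TATA and CDX motifs rarer, and base composition was not adjusted for.

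Within 100 kb, 1963 members had a nearest coding gene, 1781 genes in all, of which 1633 had 1 member, 119 had 2, 26 had 3, 1 had 4 and 2 had 5. Tns3, a focal adhesion protein gene, had 5 members among its 24 regions, with a strongest level of 137.9 CPM. Lipc, the hepatic lipase gene, had 5 of 11, none at its start, with a strongest level of 87.4 CPM. Epcam, which encodes an epithelial adhesion molecule, had 4 of 7, with 118.7 CPM at the strongest and 86.5 CPM at its start. Among the genes with 3 were Chd2, Vmp1, Ezr, Hnrnpf, Babam2, Nt5c2 and Cxadr.

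Few members stood close together. Joined at gaps of up to 12500 bp, 1780 members remained single, 88 pairs were formed, and 44 members lay in 14 clusters of 3 or more. Regions themselves are at least 2003 bp apart in the table, and the median gap is 19833 bp between neighbouring regions and 347708 bp between neighbouring members. These medians are over 55050 regions and 2000 members, so they are not set against each other. The widest cluster held the 5 members at Lipc (chr9:70829300-70864480), which spanned 35.2 kb and summed to 405.0, 389.5 and 385.4 CPM in replicates 1 to 3. The others had 3 members each. That between Malat1 and Neat1 summed to 385.6 ± 26.4 CPM, that at Vmp1 and Tubd1 to 417.8 ± 26.8, that at Junb and Hook2 to 336.8 ± 14.7, that at the NF-kB co-regulator Bcl3 to 309.4 ± 14.1 and that at the homeobox gene Cdx2 to 300.3 ± 6.38. Further clusters lay at Maff, Lgals4 and Ech1, Anxa2, Sp1, Kdm6b, Map2k2 and Zbtb7a, and Tmc6 and Tmc8, and 1 lay on JH584304.

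NF-kB genes were described first because RANK signals through them. Of the 26 genes on the list, 15 had a member (57.7%) and 11 had one at their start (42.3%), whereas 9.61% of all 21887 coding genes had a member and 7.42% had one at the start. Over genes with any region, a gene's strongest region had a median of 77.3 CPM for the list (26 genes) and 28.4 CPM for all 17146 such coding genes. All 5 subunit genes had a member at their start: after Rela and Nfkb2 came Nfkb1 with 110.4, 114.7 and 99.9 CPM, Relb with 92.9, 102.4 and 86.4 CPM and Rel with 83.8, 75.6 and 80.5 CPM. Among other genes that restrain or modulate NF-kB, Tnip1 had 96.4 ± 6.82 CPM inside the gene, Bcl3 93.0 ± 1.98 CPM at its start and Nfkbiz 88.5 ± 5.47 CPM inside the gene. At their starts, the ubiquitin ligase gene Birc3 had 125.9 ± 9.59 CPM, Traf3 90.9 ± 5.11 and the deubiquitinase Tnfaip3 74.7 ± 10.2. The adaptor Traf2 had 146.6 ± 5.23 CPM inside the gene, 11.6 kb from its start, and 36.6 CPM at the start. The chemokine Cxcl16, a target of NF-kB, had 150.1, 142.4 and 152.2 CPM at its start. The 11 genes without a member included the inducible targets Cxcl1 (23.6 CPM), Cxcl2 (17.99) and Traf1 (11.1), and Icam1 (58.4). With levels scaled per chromosome, 14 genes of the list had a member.

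Of 17 AP-1 and other immediate early genes, 11 had a member (64.7%, against 9.61% of all coding genes) and 9 had one at the start. Jun had 174.1, 166.9 and 162.0 CPM at its start, Maff 157.0, 144.5 and 143.0, Fosl2 154.4, 126.7 and 123.0, and Junb 145.3, 135.0 and 122.5. These genes encode leucine zipper factors, Maff a small Maf protein and the rest subunits of AP-1. Fos had 3 members, the strongest 11.2 kb away at 99.1 CPM and 79.0 CPM at its start. Egr1 (36.9 CPM), Fosl1 (31.2) and Fosb (29.3) had none.

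**Figure D4:**
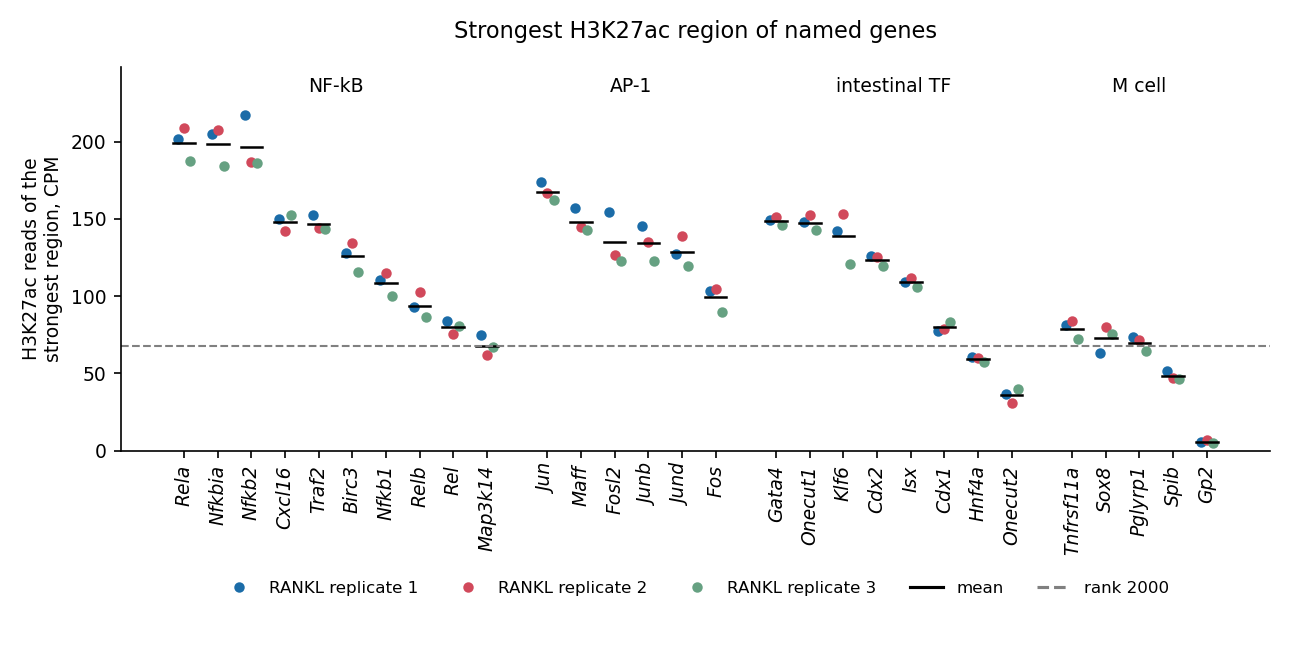
CPM of the strongest region assigned to each named gene, with a point per RANKL library and a bar at the mean; the dashed line is the level of rank 2000 (67.97 CPM). Rela, Nfkbia and Nfkb2 lie near 200 CPM in each library, while Spib, Hnf4a, Onecut2 and Gp2 lie below the line in each.

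Intestinal transcription factors had a member in 14 of 32 cases (43.8%, against 9.61% of all coding genes), 9 of them at the start. Among them were the distal regions of Gata4 and Onecut1, Klf6 at its start (138.8 ± 16.4 CPM) and Cdx2, which had members at all 3 of its regions. The intestinal homeobox gene Isx had 108.8 ± 3.04 CPM and Cdx1 79.9 ± 2.82 CPM, both at the start. Hnf4a had 60.5, 59.6 and 57.1 CPM at its strongest region and stood at rank 2912, and the other 17 without a member included Grhl2 (64.9 CPM), Elf3 (62.3) and Onecut2 (35.7). Of 21 nuclear receptors, 8 had a member, led by Ppara, Nr1d1, its relative Nr1d2 (114.2 ± 3.01 CPM) and the oestrogen-related receptor gene Esrra (106.6 ± 6.47 CPM).

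Genes of epithelial structure come next, to be read beside the 9.61% of all coding genes that had a member. Of 27 junction and keratin genes, 17 had a member (63.0%) and 15 had one at the start. A site 10.2 kb from the keratin gene Krt18 had 166.5, 199.2 and 163.8 CPM and overlapped the non-coding gene Gm41404. The tight junction gene Cgn had 130.8 ± 11.9 CPM and the adherens junction gene Ctnna1 125.9 CPM. Of 21 actin and cytoskeleton genes, 14 had a member (66.7%), among them the actin genes Actg1 (108.7 ± 2.25 CPM) and Actb (103.8 ± 0.684). The cytolinker gene Plec had 99.1 ± 2.29 CPM inside the gene, 24.5 kb from its start, and 21.4 CPM at the start. Housekeeping genes had a member in 6 of 15 cases, among them Ywhaz (135.0 ± 10.4 CPM, 8.25 kb from its start), Gapdh (112.7 ± 11.2) and Eef1a1 (112.5 ± 9.80). Histone genes had one in 4 of 9, led by H3f3b at 81.4 ± 5.12 CPM. Of 43 brush border and absorption genes, 8 had a member (18.6%): after Ezr came the microvillar link gene Ush1c (93.2 ± 5.04 CPM), Guca2b (91.6 ± 6.26) and Mttp, needed for chylomicron assembly (86.3 ± 3.8). Sucrase-isomaltase, Sis, had 20.8 CPM at a region 34.6 kb from its start and 9.61 CPM at the start. Alpi had 22.9 CPM at its start, and Fabp1 9.69 CPM at a region 13.7 kb from its start.

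Of the 9 epithelial markers set against the label, Epcam, Krt8 (88.1 ± 3.07 CPM at its start), Krt18 and Cdx2 had members. The others did not reach the limit: Krt19 had 67.9 ± 2.10 CPM at rank 2008, the microvillar gene Vil1 64.1 ± 4.28, Cdh1 55.6 ± 6.86, Cdh17 39.1 CPM and Krt20 18.2 CPM. Levels at markers of other cell types were mostly low. Over genes with a region, the strongest region had a median of 6.08 CPM for mesenchymal and 17.3 for endothelial genes. It was 10.8 CPM for leukocyte, 6.92 for neuron and glia and 28.4 for all coding genes. Since 9.61% of all coding genes had a member, the counts of 0 or 1 below do not set these short lists apart. Of 14 mesenchymal genes 1 had a member, a region 13.99 kb from Acta2 with 96.3 CPM, while Vim had 2.35 CPM, Col1a1 7.76 and Col3a1 3.15. Above the median of all coding genes were also Pdgfrb (56.0 CPM, 3.56 kb from its start) and Pdgfra (46.4 CPM, 100.8 kb from its start). Of 10 endothelial genes none had one, and their highest was Tek at 51.4 CPM, 119.1 kb from its start. Cdh5 had 30.7 CPM at a region 38.8 kb from its start and 3.16 CPM at the start. Of 14 leukocyte genes 1 had a member, Cd14 at 72.6 ± 4.99 CPM, while Ptprc had 8.14 CPM and Spi1 8.03. Of 12 neuron and glia genes 1 had a member, deep inside Syt1, 469.3 kb from its start, with 107.7 CPM, against 5.26 CPM at the start itself. Snap25 had 35.8 CPM at a region 33.7 kb from its start and 2.74 CPM at the start.

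M cell genes had a member in 4 of 22 cases (18.2%), 2 of them at the start (9.09%). Over all coding genes the shares were 9.61% and 7.42%, so these few genes do not set the list apart. The 4 genes included Relb, a subunit of non-canonical NF-kB and also on the NF-kB list, and Tnfrsf11a, which encodes RANK. The others were Sox8, a transcription factor of M cell maturation, and Pglyrp1, a peptidoglycan recognition protein. Tnfrsf11a had 2 members inside the gene, the stronger with 81.2, 83.6 and 72.0 CPM. Sox8 had 63.4, 79.9 and 75.6 CPM at a region 32.3 kb from its start, with replicate 1 below the level of rank 2000. Pglyrp1 had 73.2, 71.3 and 64.6 CPM, where replicate 3 was below it. Spib, the ETS factor that M cells require, had 51.4, 46.7 and 46.1 CPM at rank 4692, 5.73 kb from its start. That region was classed as at the start of another gene. The region at the start of Spib had 39.8 CPM, at rank 6731. The chemokine gene Ccl20 had 55.8 ± 3.30 CPM 15.8 kb from its start, and Ccl9 had 54.2 ± 4.15 CPM at its start. Gp2, the receptor for bacterial FimH on mature M cells, had 5.83, 6.76 and 4.87 CPM at rank 39230, 63.8 kb from its start.

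The lists of other lineages follow, to be read beside the 9.61% of all coding genes that had a member. Of 25 stem cell and Wnt target genes, 3 had a member. These were Axin2 (102.8 ± 10.8 CPM, 18.6 kb from its start), Tcf7l2 (99.4 ± 2.98, with 3 members, on chromosome 19) and Ephb2 (73.9 ± 4.17, 32.4 kb from its start). Lgr5 had 21.7 CPM at a region 36.2 kb from its start and 7.58 CPM at the start. Olfm4 had 60.7 CPM at a region 82.3 kb from its start and 9.37 CPM at the start. Ascl2 had 17.6 CPM at its start. Of 15 Notch genes 3 had one: the co-activator Maml1 (91.7 ± 2.80 CPM), Rbpj and the ligand Jag1 (73.0 ± 4.34), while Hes1 had 49.6 CPM. The Rbpj region had 83.7 ± 3.55 CPM and lay 84.6 kb from its start, which had 55.7 CPM. Of 34 secretory genes 2 had one, Xbp1 at 87.9 ± 5.45 CPM, a factor of the unfolded protein response, and Sct, whose region also covers the start of the brush border gene Cdhr5. Muc2 had 4.67 CPM and Chga 13.6. Of 18 YAP target and regenerative genes 8 had one, led by the annexin gene Anxa2 (111.6 ± 9.21 CPM), Msln (97.8 ± 9.04), Yap1 (94.4 ± 1.04) and Il1rn (89.0 ± 5.12), while Clu had 11.8 CPM and Ly6a 22.4.

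**Figure D5:**
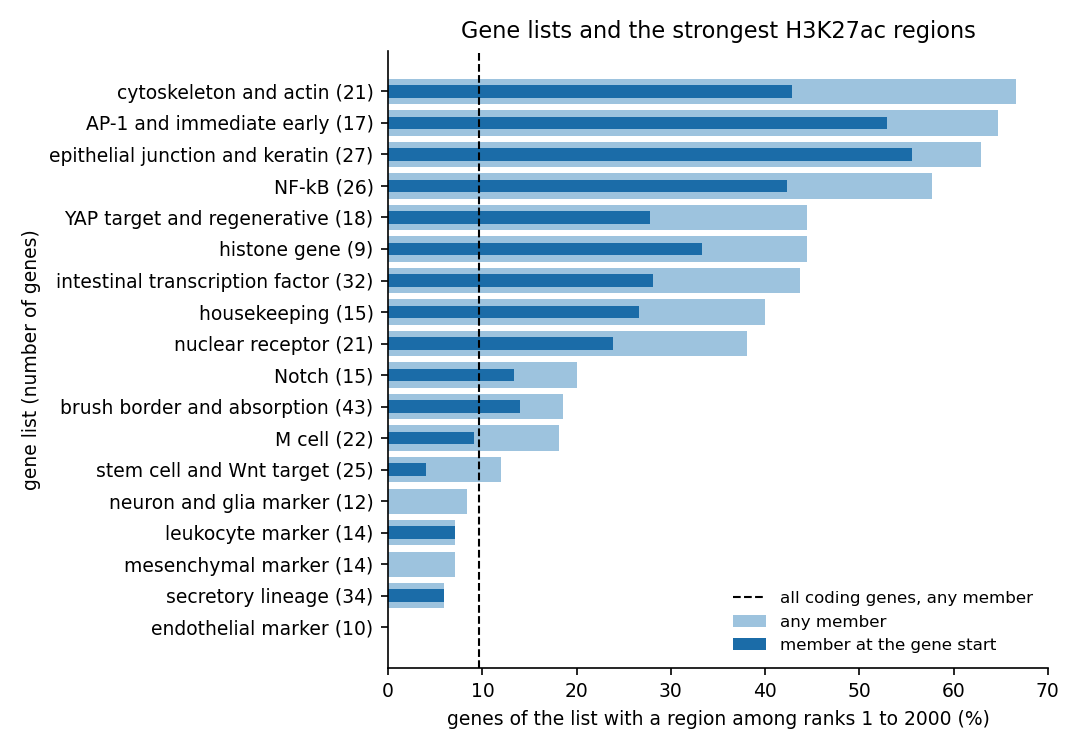
Share of the genes of each list (%) with a region among ranks 1 to 2000, anywhere (light bars) and at the gene start (dark bars), with the list's size in brackets; the dashed line is the share over all coding genes, 9.61%. Cytoskeleton, AP-1, junction and NF-kB lists lie above 50%. The secretory, mesenchymal, leukocyte, neuron and endothelial lists lie below the line, but with 0 to 2 genes each they are not set apart from it.

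Of 1005 microRNA hairpins in the table, 23 lay in 20 members. The share of all regions with a hairpin is not given here, so these counts do not set the members apart. Mir192 and Mir194-2, which are abundant in intestinal epithelium, shared a region with 201.1, 191.2 and 183.2 CPM (chr19:6263467-6265467), 11.4 kb from the nearest coding start. Mir200c and Mir141, which repress the Zeb factors in epithelial cells, shared one with 113.3, 97.8 and 106.6 CPM (chr6:124717890-124719890). The let-7 family member Mirlet7i had 105.5 ± 3.66 CPM and Mir203 96.1 ± 6.65 CPM, both between genes. All 3 libraries were above the level of rank 2000 for each of these. Of the other members with hairpins, those at Mir707, Mir3569, Mir8112, Mir5136, Mir5135, Mir7655, Mir5620, Mir5627, Mir8120, Mir1956 and Mir207 were at the start of a coding gene.

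ONECUT2 binding was not used to choose the members. The authors' deposited table lists 7268 sites of this homeodomain factor, all from their comparison of RANKL and control organoids. A listed site overlapped 222 members (11.1%) by at least 1 bp, against 5.32% of all regions. The share was 14.2, 11.2, 10.4 and 8.6% in successive classes of 500 members, then 10.7% in the next 2000 regions, 8.87% from there to rank 10000, 7.75% to rank 20000 and 3.38% below. The members as a whole and the next 2000 regions thus differed by less than successive classes of members did. Among members it was 10.4% at gene starts, 13.1% inside genes, 6.12% between genes within 20 kb of a start and 16.9% over 20 kb from one. Over all regions of the same places it was 6.01, 5.12, 6.31 and 4.65%, and over the next 2000 regions 8.99, 11.6, 16.0 and 17.1%. Members over 20 kb from a start were thus no higher than the next 2000 regions in that place. Members between genes within 20 kb, 9 of which had a site, were no higher than all regions there. They were lower than the next 2000 regions in that place, of which 20 had a site. In the authors' deposited table the log2 fold for RANKL was positive at 222 of 222 members with a site, at 2700 of 2705 other regions with one and at 7261 of all 7268 sites, so its direction does not set the members apart. In the same deposited table, the median log2 mean in RANKL libraries was 5.32 at sites in members and 5.08 at sites in other regions. Across the 222 members, that mean and the H3K27ac level had a Spearman correlation of -0.0074. Members with a site included the regions on JH584304 at rank 1, at the starts of Lsr and Fam187b, Zc3h4, Eif3a, Ddx5 and Cxcl16, at Krt18, and inside Tspan15, Gata4, Traf2 and Tnfrsf11a. The starts of Rela, Nfkbia and Nfkb2 had none listed.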

How the data were processed

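Small intestinal organoids were profiled by ChIPmentation. The authors deposited raw read counts over 2000 bp H3K27ac regions, a normalised score for the same regions (used in 1 alternative), and a table of ONECUT2 sites with log2 means, log2 folds and p-values; the p-values were not used. The submitters' processing notes name the build mm10 and the tool DiffBind. For the aligner, the peak caller and the counter, nothing is given in the sources used here. Input libraries and control columns were not analysed here.

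Counts of the 3 RANKL columns were divided by the column total, multiplied by 1000000 and averaged, and the 2000 highest regions were taken. No test was made, and the block of replicates has no place. The members and the 18 gene lists (376 entries, 375 after synonyms were joined) were chosen with earlier results of these data known. Coordinates are as deposited; whether starts count from 0 is unknown. Genes and promoters came from RefSeq tables of GRCm38.p6, with 21887 coding genes and 21263 starts of 17492 of them; for the rest either gene end stood for the start. A list gene has a member if one lies within 2 kb of its start, in its span, or nearest to it. Where no place is named, a list gene's level is that of its strongest region, which can lie away from its start. Sites overlap by at least 1 bp. Named items were the 20 strongest regions, the 15 strongest over 20 kb from a start, the 10 genes with most members, up to 4 genes per list by level plus genes without a member, and the 5 regions on either side of rank 2000; further list genes, clusters, microRNAs and sites were named after their values were seen. Some items are not reported here. Distances and overlaps were checked against bedtools and the ranking on simulated counts. Software was Python 3.11.15 with numpy 2.4.6, pandas 2.3.3 and scipy 1.17.1, and edgeR 4.0.16 (R 4.3.3) for TMM factors. Alternatives were other scalings, other numbers of members, other distances, and leaving out each replicate.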

Additional observations from a re-analysis of the deposited data

How the results depend on the processing

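No paired analysis was possible because no result comes from a test. Of 49 alternatives, 32 left the value within its limit (1.5 times for counts, the SD between the libraries' own top 2000 for shares). Of the 2000 members, 1998 were kept with TMM scaling, 1942 by the median, 1997 by the authors' normalised score, 1857 with levels scaled per chromosome, and 1921 to 1929 without 1 replicate. The share at a gene start was 69.6% for the top 1000, 66.7% for the top 4000, 66.5% at 1 kb, 71.2% at 5 kb, 75.2% with all genes and 64.8% with either end of every gene, the last chosen after the data were seen, and 67.6 to 68.1% without 1 replicate. The share inside a gene span was 81.9% for the top 4000 and 81.3 to 81.4% without 1 replicate. The share with an ONECUT2 site was 12.7% for the top 1000, 10.9% for the top 4000, 8.6% with the whole site inside, and 10.95 to 11.05% without 1 replicate. Clusters of 3 or more held 9 members when joined at 5 kb and 108 at 25 kb. Members held 17.4 to 18.4% of the reads of a library left out of the choice. Members on chromosome 19 numbered 58 on the scale per chromosome, chosen after the data were seen, and 170 to 176 without 1 replicate. The order of regions near rank 2000 is not resolved at this depth and spread between replicates.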

Other observations

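Some of the strongest regions stood at genes on no list. The starts of Ccnl1 (165.4, 172.8 and 165.0 CPM in RANKL replicates 1 to 3), a cyclin of splicing, Pcbp1 (167.6, 162.6 and 143.8 CPM), an RNA-binding protein, and Txnip (173.0, 168.2 and 162.7 CPM), an inhibitor of thioredoxin, were among the 40 strongest regions. So were those of Creb1, the cAMP-responsive factor (163.0 CPM), Arf4, a small GTPase of vesicle traffic (161.0 CPM), and the start shared by Sirt4 and Pxn, which encodes paxillin (166.5 CPM). These were picked after their values were seen.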
